A study of Homo sapiens with 16 samples.

Results

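Interferon-stimulated genes were followed in Nalm6, an established human B-cell precursor acute lymphoblastic leukaemia line, on 16 Affymetrix PrimeView expression arrays of total RNA. The set was a list of 44 gene names, listed by name for their known induction by interferons, and 42 of them had a probe set whose annotation named that gene alone, among 18132 genes tested. The list was drawn up with earlier results of these data known, so the shares of it that were called are descriptions and not independent tests. The 4 groups, with 4 arrays each, were cells labelled as carrying active, overexpressed CASP1 and given prednisolone, the same cells untreated, control cells given prednisolone, and untreated control cells. Prednisolone is a synthetic glucocorticoid, spelled as a form of prednisone in some labels. It was present for 24 hours, and the sources used here give no dose. CASP1 is the inflammatory caspase that matures interleukin 1 beta, and the series title asks whether it makes leukaemia cells resistant to glucocorticoids by cleaving their receptor. The labels do not say how CASP1 was introduced, whether either line was a clone or a pool, or whether the arrays of a group were separate cultures. The p-values therefore measure the spread between arrays, which may be technical.

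Type I interferons bind the receptor pair IFNAR1 and IFNAR2, whose kinases JAK1 and TYK2 phosphorylate STAT proteins. These join IRF9 and bind the interferon-stimulated response element, or ISRE, in front of genes whose products sense viral RNA, block viral translation and assembly, attach ubiquitin-like ISG15 to proteins and trim antigens for presentation. Glucocorticoids act through a separate nuclear receptor, kill sensitive lymphoid cells and are a mainstay of the treatment of this leukaemia.

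Signals are log2 values made by the authors with RMA, which brings arrays to a common scale, so a difference of 1 is a doubling of signal relative to the array as a whole. A gene was near the floor in a group when its mean was at or under 4.75, the 95th percentile of the means of 333 olfactory receptor genes, which B-cell precursors are not known to use. A gene was called in a comparison at a limma adjusted p under 0.05, with adjustment over all 18132 genes. Array medians lay between 4.85 and 4.93. Markers of B-cell precursors were above the floor throughout for 11 of 11 measured, with signals from 6.04 to 13.03 over single arrays, and markers of T cells (6 of 6, signals from 2.51 to 4.61) and of monocytes and macrophages (5 of 5, signals from 2.02 to 4.63) were near it throughout. Of 4 fibroblast markers 3 were near the floor throughout. Of the plasmacytoid dendritic cell markers measured, CLEC4C was near it throughout, with signals from 2.47 to 2.80, and IL3RA, a receptor chain that precursor B-cell leukaemias also carry, had signals from 4.51 to 5.98. TSC22D3, a direct target of the glucocorticoid receptor, averaged 12.67 ± 0.16 and 6.89 ± 0.15 log2 units in prednisolone-treated and untreated cells labelled CASP1, and 12.50 ± 0.31 and 7.80 ± 0.09 in prednisolone-treated and untreated control cells (SD, n = 4 each). NR3C1, the gene of that receptor, averaged 11 ± 0.13 and 10.15 ± 0.13 in prednisolone-treated and untreated cells labelled CASP1, and 11.42 ± 0.04 and 10.18 ± 0.17 in prednisolone-treated and untreated control cells (SD, n = 4 each).

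The CASP1 signal went against its label. CASP1 averaged 5.02 ± 0.26 log2 units in prednisolone-treated cells labelled CASP1, against 6.95 ± 0.10 in prednisolone-treated control cells (SD, n = 4 each). Without prednisolone it averaged 5.69 ± 0.25 in cells labelled CASP1, against 7.75 ± 0.15 in untreated control cells (SD, n = 4 each). Of its 9 probe sets 7 were called lower in each comparison, and whether any of them matches the introduced sequence was not tested. Replicate 1 of each group also stood apart from replicates 2 to 4. Among the 34 members above the floor in at least 1 group, replicate 1 was above all 3 other arrays of its group for 16 and below them for 14 in prednisolone-treated cells labelled CASP1, for 25 and 3 in untreated cells labelled CASP1, for 14 and 11 in prednisolone-treated control cells, and for 15 and 11 in untreated control cells. Counts are therefore given with and without these 4 arrays.

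Of the 42 members 31 were above the floor in all 4 groups, 3 in some groups and 8 in none, so 19% were near the floor throughout, against 40.5% of all genes. The 8 were OAS1, whose highest group mean was 4.59 log2 units, OAS3 with 3.86, IFITM3 with 4.25, RSAD2 with 2.81, GBP2 with 3.31, HERC6 with 3.64, IFI44L with 3.73 and the chemokine CXCL10 with 2.93. STAT2 had no probe set in the annotation used and was not analysed here. USP18, the protease that removes ISG15, shared its single probe set with 4 other genes, and that probe set averaged 4.32, 4.14, 4.38 and 4.65 log2 units in prednisolone-treated and untreated cells labelled CASP1 and prednisolone-treated and untreated control cells.

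Most of the listed genes with a promoter window held the core of the ISRE there, the sequence that IRF9 and its STAT partners read. RefSeq windows of 300 bases (GRCh38.p14), with 250 bases before each annotated start and 50 after it, were at hand for 34 of the 44 listed genes, and the ISRE core GAAANNGAAA, searched on both strands, lay in at least 1 window of 24 of these 34 (70.6%), against 4.38% of 27305 genes. The letters TTCNNNGAA of the gamma-activated site, or GAS, were in windows of 10 of the 34 members (29.4%), against 9.38% of all genes. Of the 12 GAS matches in member windows 5 overlapped an ISRE match. The palindromic glucocorticoid response element GNACANNNTGTNC was in 0 of the 34, against 0.48% of all genes, which says only that these letters were not in these windows.

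Windows are shown for MX1, which rose furthest with prednisolone, for the 3 members that fell furthest in control cells and for a pair of genes that share 1 core, because the same core stands in front of genes that moved in opposite directions. Each is written 5' to 3' on the strand of the gene, with capitals on the ISRE core on either strand and positions counted from the start base as 1. MX1 had 3 annotated starts, and its first window, chr21:41420308-41420607 (+), has the core from position 12 after the start.
MX1, first start: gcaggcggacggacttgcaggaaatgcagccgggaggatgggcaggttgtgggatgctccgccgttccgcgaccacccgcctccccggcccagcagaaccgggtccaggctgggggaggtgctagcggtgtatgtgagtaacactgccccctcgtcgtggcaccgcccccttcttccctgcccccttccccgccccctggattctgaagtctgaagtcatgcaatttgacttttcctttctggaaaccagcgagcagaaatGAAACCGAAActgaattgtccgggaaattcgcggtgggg
The MX1 window at chr21:41431800-41432099 (+) has a core from position -196, overlapped by a GAS match from position -189, and the window between them has neither.
MX1, last start: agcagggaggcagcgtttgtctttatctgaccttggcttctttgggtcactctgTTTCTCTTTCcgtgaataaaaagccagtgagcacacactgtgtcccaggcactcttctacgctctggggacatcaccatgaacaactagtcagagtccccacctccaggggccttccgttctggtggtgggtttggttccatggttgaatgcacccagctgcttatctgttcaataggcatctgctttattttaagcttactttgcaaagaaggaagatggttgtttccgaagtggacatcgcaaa
The window of HERC5, chr4:88456869-88457168 (+), has cores from positions -125, -119 and -74, of which the first 2 overlap.
HERC5: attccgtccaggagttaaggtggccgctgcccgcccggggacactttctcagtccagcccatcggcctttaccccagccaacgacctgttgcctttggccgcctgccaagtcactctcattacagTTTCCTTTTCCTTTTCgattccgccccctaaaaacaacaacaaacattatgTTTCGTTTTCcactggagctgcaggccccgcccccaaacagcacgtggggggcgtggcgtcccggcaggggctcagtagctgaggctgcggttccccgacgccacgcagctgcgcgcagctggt
IFIT1, at chr10:89392373-89392672 (+), has cores from positions -116 and -103.
IFIT1: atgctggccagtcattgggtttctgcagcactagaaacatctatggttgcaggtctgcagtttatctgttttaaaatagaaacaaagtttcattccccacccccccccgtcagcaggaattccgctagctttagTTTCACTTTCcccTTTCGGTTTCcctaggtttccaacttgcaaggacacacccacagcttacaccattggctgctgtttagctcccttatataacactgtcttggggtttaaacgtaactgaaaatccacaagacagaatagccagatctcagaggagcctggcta
GBP1, at chr1:89065159-89065458 (-), has a core from position -127.
GBP1: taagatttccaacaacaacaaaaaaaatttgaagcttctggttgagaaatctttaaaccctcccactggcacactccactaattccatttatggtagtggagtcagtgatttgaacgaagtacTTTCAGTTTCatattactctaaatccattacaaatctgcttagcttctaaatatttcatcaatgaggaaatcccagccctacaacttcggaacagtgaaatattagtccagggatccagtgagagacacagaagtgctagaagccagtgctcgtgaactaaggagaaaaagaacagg
PARP9 and DTX3L lie head to head, with windows that share 137 bases, and a single core at chr3:122564332-122564341 serves as a match for both. It is shown in the DTX3L window, chr3:122564088-122564387 (+).
DTX3L: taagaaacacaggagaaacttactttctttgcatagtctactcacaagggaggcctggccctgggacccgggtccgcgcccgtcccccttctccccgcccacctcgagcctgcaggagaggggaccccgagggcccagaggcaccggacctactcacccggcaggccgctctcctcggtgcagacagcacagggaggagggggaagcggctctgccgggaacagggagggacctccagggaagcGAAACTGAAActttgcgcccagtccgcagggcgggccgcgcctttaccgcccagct

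**Figure D1:**
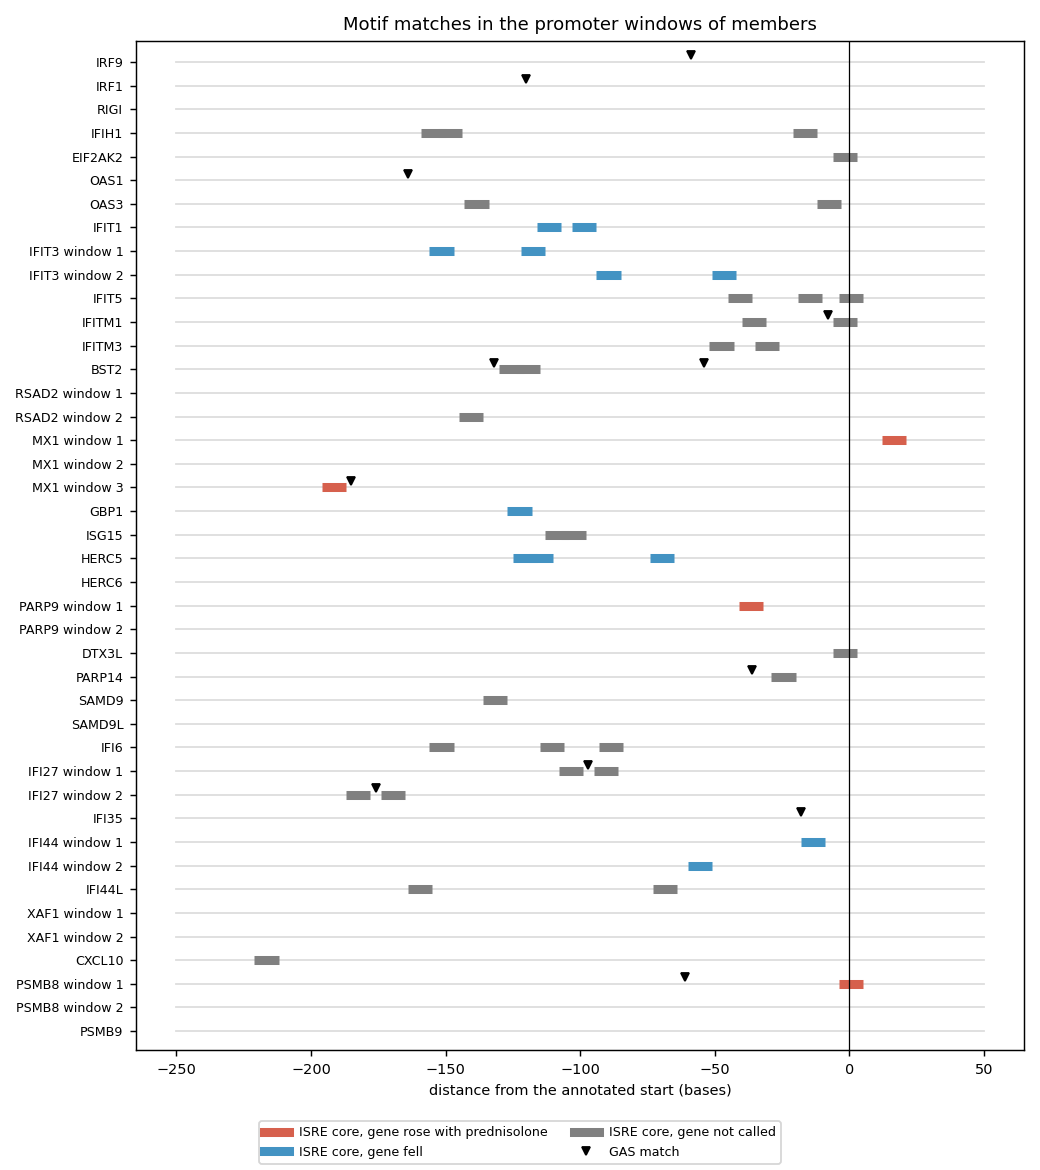
Motif matches in the 300-base promoter windows of the measured members, with distance from the annotated start in bases on the x axis and 1 row per window. Bars are ISRE cores, coloured by whether the gene rose, fell or was not called with prednisolone in either line, and triangles are GAS matches. Cores are present in windows of all 3 kinds of gene.

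Among measured members with a window, a core was present for 3 of 4 that rose with prednisolone in either line (MX1, PARP9 and PSMB8, but not IRF9), for 5 of 7 that fell (IFIT1, IFIT3, GBP1, HERC5 and IFI44, but not IRF1 or PSMB9) and for 16 of 22 that were called in neither line. The map of motif matches shows these positions.

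Prednisolone moved the interferon-stimulated genes in both directions. In cells labelled CASP1 it raised 2 members and lowered 6 of 42, so 19% were called, against 6.34% of all genes (2.99% higher and 3.35% lower). In control cells it raised 5 and lowered 6, so 26.2% were called, against 14.2% of all genes (5.73% higher and 8.43% lower). Shares of all genes, here and below, include the 40.5% of genes near the floor throughout, against 19% of the members. They are therefore not matched to the members for signal. MX1 and PARP9 were called higher and IFIT1, GBP1, HERC5 and PSMB9 lower in both lines, while IRF1 and IFIT3 were called lower in cells labelled CASP1 alone and PSMB8, IRF9 and IRF7 higher and OAS2 and IFI44 lower in control cells alone. A call in 1 line alone is no test of a difference between the lines, which is given with the interaction. The median log2 difference over the members was -0.025 in cells labelled CASP1 and -0.034 in control cells, against 0.018 and -0.015 over all genes, and the median absolute log2 difference was 0.205 and 0.204, against 0.112 and 0.118. In bulk RNA, fewer cells with a transcript and less transcript per cell cannot be told apart.

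The count in cells labelled CASP1 was 5 members without replicate 4 of the treated arrays of that line. It was 4 without replicate 4 of the untreated arrays of that line and 4 when those 8 arrays were fitted alone. The number of all genes called fell too, from 1150 on 16 arrays to 909, 791 and 688 in the same order. The lower member counts were therefore not particular to the members. Without the 4 arrays of replicate 1 all 8 calls in cells labelled CASP1 and all 11 in control cells were kept. The counts were then 12 members (5 higher and 7 lower) in cells labelled CASP1, beside 11.9% of all genes, and 14 members (7 higher and 7 lower) in control cells, beside 21.9% of all genes. DHX58, EIF2AK2, PSMB8 and TRIM22 were added in cells labelled CASP1, and ISG15, RIGI and TRIM22 in control cells.

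**Figure D2:**
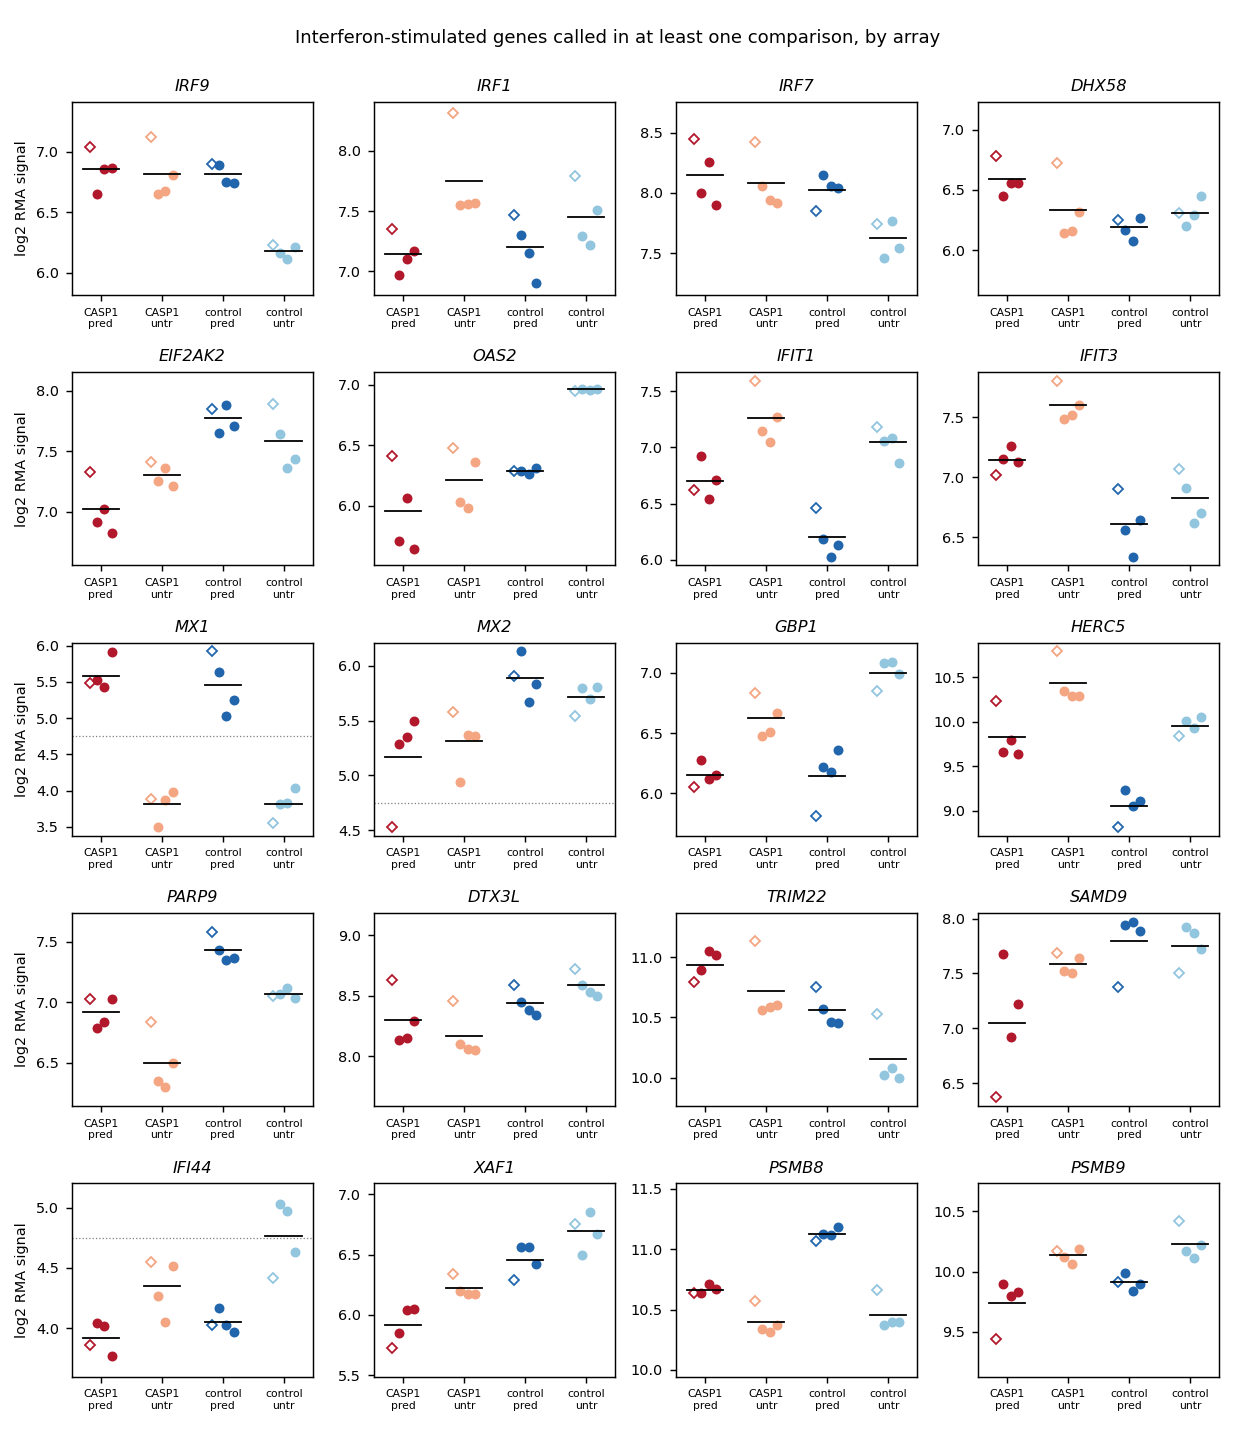
Log2 RMA signal (y axis) on each of the 16 arrays for the 20 members called in at least 1 comparison, in the order prednisolone-treated and untreated cells labelled CASP1, then prednisolone-treated and untreated control cells. Open diamonds are replicate 1, filled circles replicates 2 to 4, bars group means, and the dotted line the floor of 4.75. MX1 is above the floor on every prednisolone-treated array and under it on every untreated array.

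MX1, a dynamin-like GTPase that traps viral nucleocapsids, had the largest difference of any member. Its log2 signals were 5.49, 5.52, 5.43 and 5.91 in prednisolone-treated cells labelled CASP1, against 3.89, 3.50, 3.87 and 3.98 in untreated cells labelled CASP1. The control arrays gave 5.92, 5.63, 5.03 and 5.25 with prednisolone, against 3.56, 3.81, 3.83 and 4.04 untreated. All 8 treated arrays were above all 8 untreated ones, which were under the floor. The fitted log2 difference was 1.78 in cells labelled CASP1 (SE 0.17, adjusted p = 1.9e-06) and 1.65 in control cells (SE 0.17, adjusted p = 1.7e-06). Because the untreated means were under the floor, the rise is given as at least 1.79-fold in cells labelled CASP1 and at least 1.64-fold in control cells, the treated means over the floor. MX2, its paralogue that restricts retroviruses, was not called with prednisolone in either line.

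GBP1, a guanylate-binding GTPase that coats intracellular pathogens, fell in both lines. The log2 signals were 6.05, 6.28, 6.12 and 6.15 in prednisolone-treated cells labelled CASP1, against 6.83, 6.48, 6.51 and 6.67 in untreated cells labelled CASP1. Those of control cells were 5.81, 6.22, 6.18 and 6.36 with prednisolone, against 6.85, 7.08, 7.09 and 6.99 untreated. Treated and untreated arrays did not overlap in either line. The log2 difference was -0.47 in cells labelled CASP1 (1.39-fold lower, SE 0.11, adjusted p = 0.0156) and -0.86 in control cells (1.82-fold lower, SE 0.11, adjusted p = 2.8e-05). Without replicate 1 of untreated cells labelled CASP1 the adjusted p in that line was 0.0515.

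HERC5, the main ligase that attaches ISG15 to newly made proteins in human cells, fell in both lines. Its log2 signals were 10.23, 9.66, 9.80 and 9.64 in prednisolone-treated cells labelled CASP1, against 10.79, 10.35, 10.29 and 10.29 in untreated cells labelled CASP1. In control cells they were 8.82, 9.23, 9.06 and 9.11 with prednisolone, against 9.84, 10.01, 9.93 and 10.05 untreated. Replicate 1 was the highest array in both groups of cells labelled CASP1 and the lowest in both groups of control cells, and treated arrays lay under all untreated ones within each line. The log2 difference was -0.60 in cells labelled CASP1 (1.52-fold lower, SE 0.14, adjusted p = 0.0111) and -0.91 in control cells (1.87-fold lower, SE 0.14, adjusted p = 0.00012). A fit on the 8 arrays of cells labelled CASP1 alone ended the call in that line (adjusted p = 0.068). ISG15 itself was not called with prednisolone, with means of 7.61 and 7.76 in prednisolone-treated and untreated cells labelled CASP1 and 7.69 and 7.95 in prednisolone-treated and untreated control cells.

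The IFIT proteins bind viral RNA ends and hold back their translation, and of the 4 measured 2 fell in cells labelled CASP1 and 1 in control cells. IFIT1 had log2 signals of 6.62, 6.92, 6.54 and 6.71 in prednisolone-treated cells labelled CASP1, against 7.59, 7.15, 7.05 and 7.27 in untreated cells labelled CASP1. The control arrays gave 6.46, 6.19, 6.03 and 6.13 with prednisolone, against 7.18, 7.06, 7.08 and 6.86 untreated. No treated array reached an untreated one, and the log2 difference was -0.57 in cells labelled CASP1 (1.48-fold lower, SE 0.12, adjusted p = 0.0083) and -0.84 in control cells (1.79-fold lower, SE 0.12, adjusted p = 9.4e-05). IFIT3, which stabilises IFIT1 on its targets, had log2 signals of 7.02, 7.15, 7.26 and 7.13 in prednisolone-treated cells labelled CASP1, against 7.80, 7.48, 7.52 and 7.60 in untreated ones. It had 6.90, 6.56, 6.34 and 6.64 in prednisolone-treated control cells, against 7.07, 6.91, 6.62 and 6.70 in untreated ones. The groups were apart in cells labelled CASP1 (log2 difference -0.46, 1.38-fold lower, SE 0.12, adjusted p = 0.0265) and overlapped in control cells, where IFIT3 was not called. The call was lost without replicate 1 of prednisolone-treated cells labelled CASP1 (adjusted p = 0.0576) or of untreated cells labelled CASP1 (0.0839), and without replicate 4 of either (0.0611 and 0.0645).

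IFIT2 was not called in any comparison of the 16 arrays. The log2 signals were 5.50, 6.93, 6.94 and 6.91 in prednisolone-treated cells labelled CASP1, against 7.06, 6.96, 6.96 and 7.19 in untreated ones, so replicate 1 of the treated group lay far under the rest. IFIT5, with group means from 7.12 to 7.42, was not called in any comparison either on its brightest probe set. Between the prednisolone-treated lines 2 of its 2 probe sets were lower in cells labelled CASP1, with 1 called.

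OAS2 makes the short oligoadenylates that switch on RNase L, and it fell in control cells. Its log2 signals were 6.29, 6.29, 6.26 and 6.31 in prednisolone-treated control cells, against 6.95, 6.97, 6.96 and 6.97 in untreated control cells. In cells labelled CASP1 they were 6.41, 5.71, 6.06 and 5.64 with prednisolone, against 6.48, 6.03, 5.98 and 6.36 untreated. The control groups were narrow and apart (log2 difference -0.68, 1.6-fold lower, SE 0.14, adjusted p = 0.0025), while the groups labelled CASP1 were wide and overlapped, and OAS2 was not called there on its brightest probe set. Of the 5 OAS2 probe sets 3 were lower in cells labelled CASP1, with 1 called, and 5 were lower in control cells, with 2 called. With its probe sets averaged the difference in control cells was -0.43 (adjusted p = 0.00067). Of the further probe sets shared by OAS2 and OAS3, one averaged 2.96 ± 0.18 and 3.28 ± 0.42 in prednisolone-treated and untreated cells labelled CASP1, and 3.77 ± 0.47 and 4.82 ± 0.41 in prednisolone-treated and untreated control cells (SD, n = 4 each), so that it was near the floor in every group except untreated control cells. The other was near the floor in all 4 groups, with means from 2.66 to 3.02. The RNA sensors RIGI, IFIH1 and DHX58, the RNA-activated kinase EIF2AK2 and OASL, which helps RIGI to sense RNA, were not called with prednisolone in either line. Group means ran from 6.25 to 6.84 for RIGI, from 6.78 to 6.97 for IFIH1 and from 4.60 to 4.76 for OASL, which was near the floor in 3 groups.

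Among transcription factors, IRF9, the DNA-binding partner of STAT proteins, rose in control cells. The log2 signals were 6.90, 6.89, 6.75 and 6.74 in prednisolone-treated control cells, against 6.23, 6.16, 6.11 and 6.21 in untreated control cells. In cells labelled CASP1 they were 7.04, 6.65, 6.86 and 6.87 with prednisolone, against 7.12, 6.65, 6.68 and 6.81 untreated. Untreated control cells stood under the other 3 groups, which overlapped each other. The log2 difference in control cells was 0.64 (1.56-fold higher, SE 0.11, adjusted p = 0.00027), and 4 of 4 probe sets had this sign. IRF7, which amplifies the interferon response, rose by a log2 difference of 0.40 in control cells (adjusted p = 0.0495), and leaving out any 1 of 12 of the 16 arrays ended this call, with the adjusted p reaching 0.151 without replicate 2 of untreated control cells, as did centring the arrays on their 75th percentile (0.41, adjusted p = 0.0516).

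IRF1, the factor that drives immunoproteasome and antigen-presentation genes, fell in cells labelled CASP1. Its log2 signals were 7.35, 6.97, 7.10 and 7.17 in prednisolone-treated cells labelled CASP1, against 8.31, 7.55, 7.56 and 7.57 in untreated cells labelled CASP1. Those of control cells were 7.47, 7.30, 7.15 and 6.90 with prednisolone, against 7.79, 7.29, 7.22 and 7.51 untreated. The groups labelled CASP1 were apart (log2 difference -0.60, 1.52-fold lower, SE 0.17, adjusted p = 0.0425), but the highest untreated array was replicate 1, without which the difference was -0.41 (adjusted p = 0.118). The call also ended when any 1 of 9 other arrays was left out, and in a fit on the 8 arrays of that line alone (adjusted p = 0.0939).

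PARP9 works with the ubiquitin ligase DTX3L, with which it shares the promoter core shown above, and it rose in both lines. The log2 signals were 7.03, 6.79, 6.84 and 7.03 in prednisolone-treated cells labelled CASP1, against 6.84, 6.35, 6.30 and 6.50 in untreated cells labelled CASP1. In control cells they were 7.58, 7.43, 7.35 and 7.37 with prednisolone, against 7.05, 7.07, 7.12 and 7.04 untreated. Replicate 1 of untreated cells labelled CASP1 overlapped the treated arrays of that line, and the control groups were apart. The log2 difference was 0.43 in cells labelled CASP1 (SE 0.11, adjusted p = 0.0197) and 0.36 in control cells (SE 0.11, adjusted p = 0.0275), and averaging its 3 probe sets ended both calls (0.26, adjusted p = 0.0753, and 0.22, adjusted p = 0.105). A fit on the 8 arrays of cells labelled CASP1 alone also ended the call there (adjusted p = 0.112). Leaving out replicate 2, 3 or 4 of untreated or replicate 4 of treated cells labelled CASP1, or replicate 1 or 2 of either control group or replicate 4 of untreated control cells, also ended the call in that line. DTX3L, across the same core, was not called, with means of 8.30 and 8.17 in prednisolone-treated and untreated cells labelled CASP1 and 8.44 and 8.59 in prednisolone-treated and untreated control cells.

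The immunoproteasome subunits PSMB8 and PSMB9, which trim peptides for MHC class I, moved in opposite directions in control cells. PSMB8 had log2 signals of 11.07, 11.13, 11.12 and 11.18 in prednisolone-treated control cells, against 10.66, 10.37, 10.40 and 10.40 in untreated control cells. In cells labelled CASP1 they were 10.64, 10.64, 10.71 and 10.67 with prednisolone, against 10.57, 10.34, 10.31 and 10.37 untreated. Within each line every treated array was above every untreated one. The log2 difference was 0.67 in control cells (1.59-fold higher, SE 0.08, adjusted p = 1.5e-05), and in cells labelled CASP1 it was 0.26 and not called (adjusted p = 0.0732), or 0.33 without the 4 arrays of replicate 1 (adjusted p = 0.0027).

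PSMB9 had log2 signals of 9.44, 9.90, 9.80 and 9.83 in prednisolone-treated cells labelled CASP1, against 10.17, 10.12, 10.06 and 10.19 in untreated cells labelled CASP1. The control arrays gave 9.91, 9.99, 9.84 and 9.90 with prednisolone, against 10.42, 10.17, 10.11 and 10.22 untreated. Treated arrays lay under untreated ones in both lines, and the log2 difference was -0.39 in cells labelled CASP1 (SE 0.10, adjusted p = 0.0225) and -0.32 in control cells (SE 0.10, adjusted p = 0.0357). In control cells the call ended on averaging its 3 probe sets (-0.14, adjusted p = 0.221) and on quantile normalization (-0.26, adjusted p = 0.115), and in cells labelled CASP1 in a fit on that line alone (adjusted p = 0.0939). Leaving out any 1 of 6 control arrays or of replicates 1 and 4 of untreated cells labelled CASP1 ended the call in that line.

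IFI44, a cytoplasmic protein induced by interferon, was near the floor in all groups except untreated control cells. Its log2 signals were 4.03, 4.17, 4.03 and 3.97 in prednisolone-treated control cells, against 4.42, 5.03, 4.97 and 4.63 in untreated control cells. The groups were apart (log2 difference -0.72, SE 0.13, adjusted p = 0.00091), but the untreated mean of 4.76 was so close to the floor that the fall can be bounded only as at least 1.01-fold, and averaging its probe sets gave -0.45 (adjusted p = 0.00013). In cells labelled CASP1 it was not called on its brightest probe set, with 3.86, 4.04, 4.02 and 3.77 with prednisolone, against 4.55, 4.27, 4.05 and 4.52 untreated. Of the 6 IFI44 probe sets 4 were lower with prednisolone in cells labelled CASP1, with 2 called, and 6 were lower in control cells, with 3 called.

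**Figure D3:**
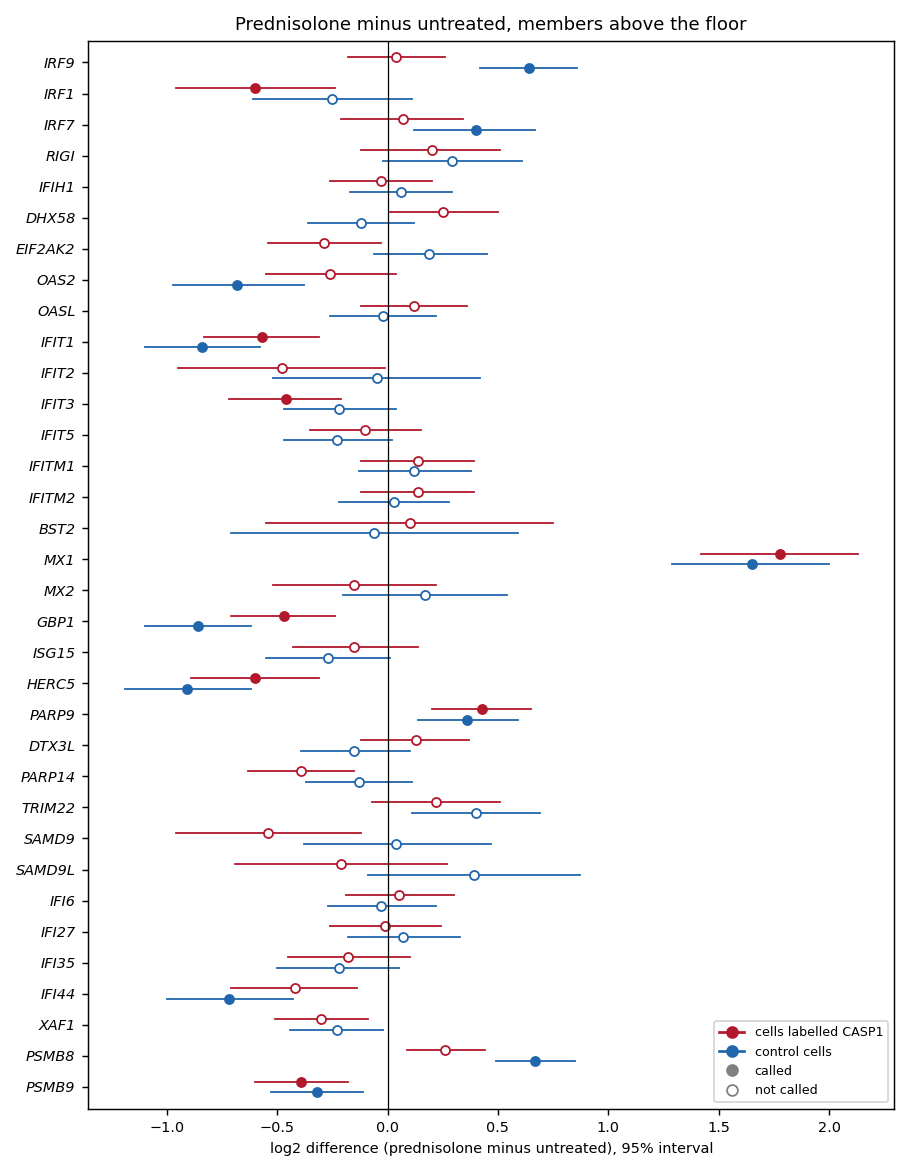
Log2 difference between prednisolone-treated and untreated cells (x axis) for the 34 members above the floor in at least 1 group, in cells labelled CASP1 (red) and control cells (blue). Points are fitted differences, bars 95% intervals, and filled points are called. MX1 lies furthest right in both lines, and HERC5, GBP1 and IFIT1 lie furthest left in control cells.

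The remaining members above the floor were not called with prednisolone in either line. They included the membrane proteins that stop viral entry or release: IFITM1, with means from 5.19 to 5.48, IFITM2, with means from 11.52 to 11.67, and BST2, with means from 7.44 to 7.90 and a within-group SD of up to 0.67. IFITM1, IFITM2 and IFITM3 are closely similar in sequence, so their separate signals are uncertain. PARP14, an ADP-ribosyltransferase, had means from 8.63 to 9.01. TRIM22, SAMD9, SAMD9L, IFI6, IFI27, IFI35 and XAF1 were likewise not called with prednisolone on their brightest probe sets, as the plot of differences with prednisolone shows. All 6 TRIM22 probe sets were higher with prednisolone in both lines, with 2 called in cells labelled CASP1 and 3 in control cells. All 7 XAF1 probe sets were lower in both lines, with 1 called in cells labelled CASP1 and 0 in control cells. Group means ran from 5.30 to 5.95 for SAMD9L, a relative of SAMD9, from 7.07 to 7.19 for IFI6, from 5.07 to 5.19 for IFI27 and from 5.98 to 6.42 for IFI35.

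Some members differed between the cells labelled CASP1 and the control cells, both with and without prednisolone. With prednisolone 4 members were higher and 6 lower in cells labelled CASP1 (23.8% called, against 16.4% of all genes, 7.88% higher and 8.52% lower). Without it 5 were higher and 6 lower (26.2% called, against 14.1% of all genes, 5.87% higher and 8.2% lower). As above, the shares of all genes are not matched to the members for signal. Leaving out the dimmest 30% of genes gave 3143 called genes with and 2719 without prednisolone (2974 and 2552 before), out of fewer genes. The members called were then still 10 and 11, out of fewer members. The shares called of all genes and of members were thus both higher than those above, so these counts do not show that the excess of members remained. IFIT3 and HERC5 were called higher and PARP9 and XAF1 lower in cells labelled CASP1 under both conditions. The median log2 difference over the members was -0.064 with and -0.050 without prednisolone, against 0.045 and 0.007 over all genes, and the median absolute difference was 0.161 and 0.209, against 0.146 and 0.126. The design has 1 line for each label, so any other difference between the lines cannot be told apart from the label.

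Without replicate 1 all 10 and 11 calls were kept and the counts were 17 members (7 higher and 10 lower) with prednisolone, beside 22.4% of all genes, and 15 members (6 higher and 9 lower) without it, beside 21.4%. IFI6, IFIH1, IFIT2, OAS2, RIGI, SAMD9L and TRIM22 were added with prednisolone, and BST2, IFIT2, MX2 and RIGI without it. The comparisons of lines use the same arrays as those of prednisolone, so their differences are not independent of those above.

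HERC5 and IFIT3 were higher in cells labelled CASP1 under both conditions. For HERC5, whose signals on each array are given above, the log2 difference was 0.78 with prednisolone (1.71-fold higher, SE 0.14, adjusted p = 0.0007) and 0.47 without it (1.39-fold higher, SE 0.14, adjusted p = 0.0268), and the lines did not overlap under either condition. Without replicate 1 of untreated cells labelled CASP1 the difference in untreated cells was 0.35 and not called (adjusted p = 0.0978), and leaving out replicate 1 or 3 of untreated control cells also ended it. Without the 4 arrays of replicate 1 that difference was 0.31 (adjusted p = 0.0069). For IFIT3 the log2 difference was 0.53 with prednisolone (1.44-fold higher, SE 0.12, adjusted p = 0.0054) and 0.78 without it (1.71-fold higher, SE 0.12, adjusted p = 0.00026), again with no overlap between the lines. Between the prednisolone-treated lines IFIT1 was higher in cells labelled CASP1 by 0.50 (1.41-fold, SE 0.12, adjusted p = 0.0098), and between the untreated lines it was not called.

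IRF9 and IRF7 were higher in untreated cells labelled CASP1 than in untreated control cells. For IRF9 the log2 difference was 0.64 (1.56-fold higher, SE 0.11, adjusted p = 0.00044), with no overlap between the lines. IRF7 had log2 signals of 8.42, 8.06, 7.94 and 7.92 in untreated cells labelled CASP1, against 7.74, 7.46, 7.77 and 7.54 in untreated control cells, which lay lower on every array (log2 difference 0.46, 1.37-fold higher, SE 0.13, adjusted p = 0.0234). With prednisolone IRF7 had 8.45, 8.0, 8.26 and 7.90 in cells labelled CASP1, against 7.85, 8.15, 8.06 and 8.04 in control cells, and the lines overlapped. The IRF7 call without prednisolone ended without replicate 1 of cells labelled CASP1 (0.35, adjusted p = 0.0875) and without replicate 2 or 4 of control cells.

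TRIM22, a ubiquitin ligase that restrains several viruses, was higher in untreated cells labelled CASP1. The log2 signals were 11.13, 10.56, 10.59 and 10.60 in untreated cells labelled CASP1, against 10.53, 10.02, 10.08 and 10.00 in untreated control cells. With prednisolone they were 10.79, 10.89, 11.05 and 11.02 in cells labelled CASP1, against 10.75, 10.57, 10.46 and 10.45 in control cells. Replicate 1 was the highest array in 3 of the 4 groups, and the lines did not overlap under either condition. The log2 difference in untreated cells was 0.56 (1.48-fold higher, SE 0.14, adjusted p = 0.0091). Between the prednisolone-treated lines TRIM22 was not called on 16 arrays on its brightest probe set, but 6 of 6 probe sets were higher in cells labelled CASP1, with 2 called.

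PARP9 and XAF1 were lower in cells labelled CASP1 under both conditions. For PARP9 the log2 difference was -0.51 with prednisolone (1.42-fold lower, SE 0.11, adjusted p = 0.0029) and -0.58 without it (1.49-fold lower, SE 0.11, adjusted p = 0.0012), with no overlap, and averaging its probe sets gave -0.30 and -0.35 (adjusted p = 0.0181 and 0.008). XAF1, a partner of the caspase inhibitor XIAP, had log2 signals of 5.73, 5.85, 6.04 and 6.05 in prednisolone-treated cells labelled CASP1, against 6.29, 6.56, 6.56 and 6.42 in prednisolone-treated control cells. Without prednisolone they were 6.34, 6.20, 6.17 and 6.17 in cells labelled CASP1, against 6.75, 6.50, 6.85 and 6.67 in control cells. The lines were apart under both conditions (log2 difference -0.54 with prednisolone, 1.45-fold lower, SE 0.10, adjusted p = 0.001, and -0.47 without it, 1.39-fold lower, SE 0.10, adjusted p = 0.0033), and 7 of 7 probe sets had this sign. DTX3L was lower in untreated cells labelled CASP1 by a log2 difference of -0.42 (adjusted p = 0.0215), a call that ended when any 1 of 5 arrays was left out, among them replicate 3 of the cells labelled CASP1 (-0.38, adjusted p = 0.0678).

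OAS2 was lower in untreated cells labelled CASP1, and EIF2AK2, the RNA-activated kinase that shuts down translation, was lower in prednisolone-treated ones. The log2 difference for OAS2 in untreated cells was -0.75 (1.68-fold lower, SE 0.14, adjusted p = 0.0013), with every array of cells labelled CASP1 under every control array, and -0.46 with its probe sets averaged (adjusted p = 0.00056). EIF2AK2 had log2 signals of 7.33, 6.91, 7.02 and 6.82 in prednisolone-treated cells labelled CASP1, against 7.85, 7.65, 7.88 and 7.71 in prednisolone-treated control cells. Without prednisolone they were 7.41, 7.25, 7.36 and 7.21 in cells labelled CASP1, against 7.89, 7.64, 7.36 and 7.44 in control cells. The treated lines were apart (log2 difference -0.75, 1.68-fold lower, SE 0.12, adjusted p = 0.00032), and the untreated ones overlapped and were not called on the brightest probe set. Of the 2 EIF2AK2 probe sets 2 were lower in untreated cells labelled CASP1, with 1 called. Between the prednisolone-treated lines DHX58, a helicase that tunes the other RNA sensors, was higher in cells labelled CASP1 by 0.40 (adjusted p = 0.0254). This call ended on averaging its 4 probe sets (0.31, adjusted p = 0.0544). It also ended on leaving out replicate 1 of treated cells labelled CASP1 (0.33, adjusted p = 0.0706) or replicate 2 or 3 of treated control cells.

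MX2 and SAMD9 were lower in prednisolone-treated cells labelled CASP1. MX2 had log2 signals of 4.53, 5.29, 5.35 and 5.50 in prednisolone-treated cells labelled CASP1, against 5.91, 6.13, 5.67 and 5.83 in prednisolone-treated control cells (log2 difference -0.72, 1.65-fold lower, SE 0.18, adjusted p = 0.0084). Without prednisolone they were 5.58, 4.94, 5.37 and 5.36 in cells labelled CASP1, against 5.54, 5.80, 5.70 and 5.81 in control cells. Replicate 1 was the lowest treated array labelled CASP1, under the floor, and the treated lines did not overlap. The mean of the MX2 probe sets gave -0.46 (adjusted p = 0.0076). SAMD9, which halts translation in cells infected by poxviruses, had log2 signals of 6.37, 7.68, 6.92 and 7.22 in prednisolone-treated cells labelled CASP1, against 7.38, 7.94, 7.97 and 7.89 in prednisolone-treated control cells. Its lines overlapped and its range was wide (log2 difference -0.75, 1.68-fold lower, SE 0.20, adjusted p = 0.0156), and a fit on those 8 arrays alone ended the call (adjusted p = 0.0745). Without prednisolone it had 7.69, 7.52, 7.50 and 7.64 in cells labelled CASP1, against 7.50, 7.92, 7.87 and 7.72 in control cells, and was not called.

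PSMB8 was lower in prednisolone-treated cells labelled CASP1 by a log2 difference of -0.46 (adjusted p = 0.00088), and PSMB9 was not called between the lines. GBP1 and IFI44 were lower in untreated cells labelled CASP1, by -0.38 (adjusted p = 0.0311) and -0.42 (adjusted p = 0.045). Both calls ended when the arrays were centred on their 75th percentile (-0.34, adjusted p = 0.0671, and -0.38, adjusted p = 0.0707), or quantile normalized (-0.34, adjusted p = 0.0589, and -0.41, adjusted p = 0.0519). That of GBP1 also ended with its probe sets averaged (-0.30, adjusted p = 0.184) and on leaving out any 1 of 6 arrays, and that of IFI44 in a fit on the untreated arrays alone (adjusted p = 0.103) and on leaving out any 1 of 11. The mean of the IFI44 probe sets gave -0.24 (adjusted p = 0.0248). The IFI44 lines overlapped, and its fall can be bounded only as at least 1.01-fold.

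**Figure D4:**
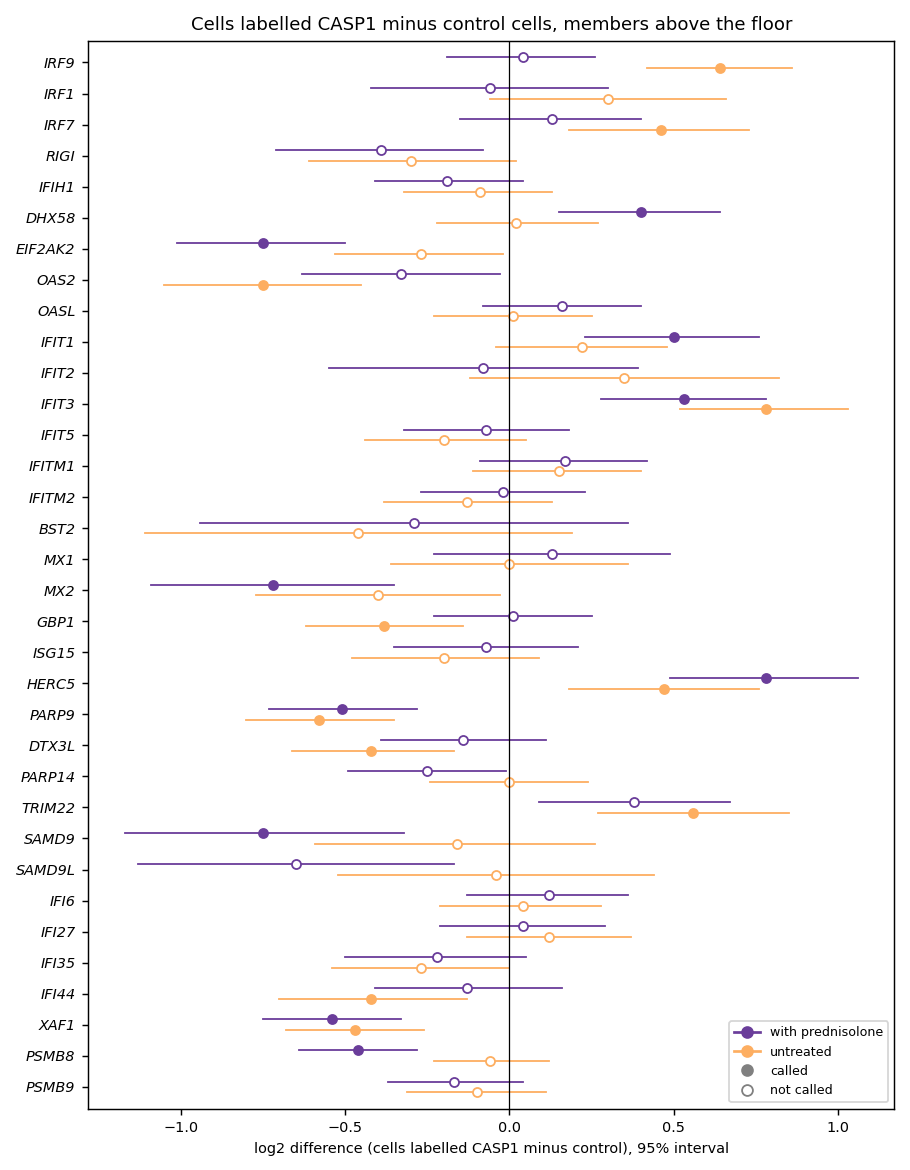
Log2 difference between cells labelled CASP1 and control cells (x axis) for the same 34 members, with and without prednisolone. Points are fitted differences, bars 95% intervals, and filled points are called. IFIT3 and HERC5 lie right of 0 and PARP9 and XAF1 left of 0 under both conditions.

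Whether the lines differed in their response to prednisolone was tested with the interaction, taken as the difference of responses (cells labelled CASP1 first, control cells subtracted). No member passed: limma called 0 of 42, against 0.888% of all genes (161 of 18132, 0.524% higher and 0.364% lower), while 7 of the 42 (16.7%) had an unadjusted p under 0.05, against 10.3% of all genes. IRF9 came closest, with an interaction of -0.60 log2 units (95% interval -0.91 to -0.29, adjusted p = 0.0721), followed by PSMB8 with -0.41 (-0.65 to -0.16, adjusted p = 0.148) and EIF2AK2 with -0.48 (-0.84 to -0.12, adjusted p = 0.278). Without the 4 arrays of replicate 1 these 3 were called, with -0.55, -0.42 and -0.63 (adjusted p = 0.0163, 0.0145 and 0.0163), beside 4.01% of all genes. IRF9 was also called with the replicate number as a block (-0.60, adjusted p = 0.0211, beside 1.59% of all genes), with its probe sets averaged (-0.43, adjusted p = 0.0201, beside 1.11%) and without replicate 1 of prednisolone-treated cells labelled CASP1 (-0.66, adjusted p = 0.0281, beside 1.48%). For MX1 the interaction was 0.13 (95% interval -0.38 to 0.63), so fitted responses that differ by up to 0.63 log2 units lie within the interval. Because the untreated MX1 means were under the floor in each line, this interval does not limit how far the true responses differ. The median over the members was 0.040, against 0.034 over all genes, and -0.008 without replicate 1 of untreated control cells.

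Further genes of the pathway, 96 listed by role and 91 measured, put the members in context. The 6 measured interferon ligands, IFNA2, IFNB1, IFNG, IFNK, IFNE and IFNL1, were near the floor in all 4 groups, with no group mean above 4.01. Over all lists prednisolone was called higher for 7 and lower for 6 of the 91 in cells labelled CASP1 (14.3%, against 6.34% of all genes), and higher for 14 and lower for 16 in control cells (33%, against 14.2%). Between the lines 5 were higher and 10 lower with prednisolone (16.5%, which is the background of 16.4% of all genes), and 8 were higher and 10 lower without it (19.8%, against 14.1%).

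Among receptors, IFNLR1, the specific chain of the type III interferon receptor, was higher with prednisolone. Its log2 signals were 7.60, 6.67, 6.97 and 6.84 in prednisolone-treated cells labelled CASP1, against 6.71, 5.85, 5.62 and 6.08 in untreated ones, and 7.48, 6.75, 6.63 and 6.70 in prednisolone-treated control cells, against 5.48, 5.31, 5.0 and 5.17 in untreated ones. Replicate 1 was the highest array of each group, and the groups overlapped in cells labelled CASP1 through it. The log2 difference was 0.96 in cells labelled CASP1 (SE 0.23, adjusted p = 0.0174) and 1.65 in control cells (SE 0.23, adjusted p = 5.9e-05). It was also higher in untreated cells labelled CASP1 than in untreated control cells, by 0.82 (adjusted p = 0.0227), or by 0.61 without replicate 1 of the cells labelled CASP1 (adjusted p = 0.0859). Leaving out replicate 2 or 3 of untreated cells labelled CASP1, or a fit on that line alone, ended the call with prednisolone in that line, and leaving out replicate 3 or 4 of untreated control cells that between the untreated lines.

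Of the type I receptor chains and their kinases, JAK1 and IFNAR1 were called in some comparisons. IFNAR2 and TYK2 were not called in any comparison, with group means from 7.10 to 7.32 and from 8.61 to 8.83. JAK1 was higher with prednisolone in control cells, with log2 signals of 10.21, 10.44, 10.47 and 10.51, against 9.77, 10.01, 10.03 and 9.99 untreated (log2 difference 0.46, SE 0.11, adjusted p = 0.0102), and was not called in cells labelled CASP1 (-0.17). With prednisolone it was lower in cells labelled CASP1 than in control cells by -0.36 (adjusted p = 0.0403), a call that ended without replicate 1 of the cells labelled CASP1 (-0.25, adjusted p = 0.119), without any 1 of 6 other arrays, on centring (-0.32, adjusted p = 0.0616), with its probe sets averaged (-0.37, adjusted p = 0.0702) and in a fit on the treated arrays alone (adjusted p = 0.0946). Its interaction of -0.63 was not called on 16 arrays (95% interval -0.97 to -0.29, adjusted p = 0.0866), but was with the replicate number as a block (-0.63, adjusted p = 0.005) and without the 4 arrays of replicate 1 (-0.59, adjusted p = 0.0021). IFNAR1 was higher in untreated cells labelled CASP1 by 0.47 on its brightest probe set (adjusted p = 0.0042), but only 2 of its 4 probe sets had this sign, 1 was called the other way, and their mean gave -0.06.

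The largest differences with prednisolone in the pathway lists were those of ISG20, an exonuclease that degrades viral RNA, and SOCS1, which blocks the JAK kinases. ISG20 had log2 signals of 7.94, 9.07, 9.02 and 9.14 in prednisolone-treated cells labelled CASP1, against 5.32, 4.92, 5.19 and 5.48 in untreated ones (log2 difference 3.57, 11.8-fold higher, SE 0.21, adjusted p = 4.1e-09). Those of control cells were 9.70, 10.14, 10.31 and 10.16 with prednisolone, against 5.62, 5.56, 5.60 and 5.82 untreated (log2 difference 4.43, 21.5-fold higher, SE 0.21, adjusted p = 1.3e-10). Treated arrays were far above all untreated ones, and with prednisolone ISG20 was lower in cells labelled CASP1 by -1.29 (2.44-fold lower, SE 0.21, adjusted p = 0.00035). Its interaction of -0.86 was not called (95% interval -1.48 to -0.24, adjusted p = 0.253).

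SOCS1 had log2 signals of 7.0, 6.50, 6.99 and 6.83 in prednisolone-treated cells labelled CASP1, against 4.13, 4.41, 4.68 and 4.52 in untreated ones. In control cells they were 7.14, 7.29, 7.01 and 7.15 with prednisolone, against 3.95, 4.34, 4.46 and 4.09 untreated. All 8 untreated arrays were under the floor. On its brightest probe set the rise was therefore at least 4.23-fold in cells labelled CASP1 (fitted log2 difference 2.40, adjusted p = 4e-09) and at least 5.28-fold in control cells (fitted 2.94, adjusted p = 1.3e-10). Averaging the SOCS1 probe sets gave 1.48 and 1.91 (adjusted p = 1.3e-07 and 2.6e-09). These are smaller than the bounds, which are 2.08 and 2.40 in log2 units.

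IRF8, a lymphoid and myeloid member of the interferon regulatory factors, and IFI30, a thiol reductase of antigen processing, were the only pathway genes called in the interaction. IRF8 had log2 signals of 6.67, 6.30, 6.68 and 6.51 in prednisolone-treated cells labelled CASP1, against 4.77, 4.44, 4.90 and 4.51 in untreated ones. The control arrays gave 6.58, 6.11, 6.11 and 5.98 with prednisolone, against 5.67, 5.47, 5.35 and 5.30 untreated. It rose in both lines, by a fitted 1.88 in cells labelled CASP1 (adjusted p = 6.4e-08) and 0.74 in control cells (adjusted p = 0.00082), with an interaction of 1.14 (SE 0.19, adjusted p = 0.0071). Untreated cells labelled CASP1 had a mean of 4.66, under the floor. On the brightest IRF8 probe set their rise was therefore at least 3.46-fold. IRF8 was lower there than in untreated control cells by at least 1.62-fold on that probe set (fitted -0.79, adjusted p = 0.00066). Averaging its probe sets gave -0.40 for that difference (adjusted p = 0.0209), smaller than the bound of 0.70 log2 units, and 0.69 for the interaction (adjusted p = 0.041).

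IFI30 had log2 signals of 8.42, 8.56, 8.44 and 8.41 in prednisolone-treated cells labelled CASP1, against 8.71, 8.58, 8.51 and 8.59 in untreated ones. Those of control cells were 8.14, 8.14, 7.99 and 8.16 with prednisolone, against 9.18, 9.04, 8.95 and 9.08 untreated. The fall was clear of overlap in control cells (log2 difference -0.95, 1.94-fold lower, SE 0.08, adjusted p = 1.2e-07), the groups labelled CASP1 overlapped, and the interaction was 0.82 (SE 0.11, adjusted p = 0.0016).

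CMPK2, a mitochondrial nucleotide kinase whose gene lies head to head with RSAD2, had the largest difference between the lines in these lists. The log2 signals were 3.70, 3.54, 3.67 and 4.08 in prednisolone-treated cells labelled CASP1, against 7.44, 7.07, 6.51 and 6.68 in prednisolone-treated control cells. Without prednisolone they were 3.80, 3.16, 3.08 and 2.82 in cells labelled CASP1, against 6.17, 5.62, 5.30 and 5.10 in control cells. Every array labelled CASP1 was under the floor and every control array above it, so CMPK2 was at least 4.53-fold lower in cells labelled CASP1 with prednisolone (fitted -3.18, adjusted p = 1.3e-07) and at least 1.74-fold lower without it (fitted -2.33, adjusted p = 4.4e-06). These bounds hold for its brightest probe set: of its 3 probe sets 2 had the sign of the line difference and 1 was called, and their mean gave -1.18 with prednisolone (adjusted p = 4.5e-06) and -0.83 without it (adjusted p = 0.00015). Prednisolone raised it in control cells by 1.38 (2.6-fold, SE 0.24, adjusted p = 0.00047), or by 0.54 with its probe sets averaged (adjusted p = 0.0044). RSAD2, whose promoter windows share up to 165 bases with those of CMPK2, was near the floor on every array, with signals from 2.44 to 3.10.

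**Figure D5:**
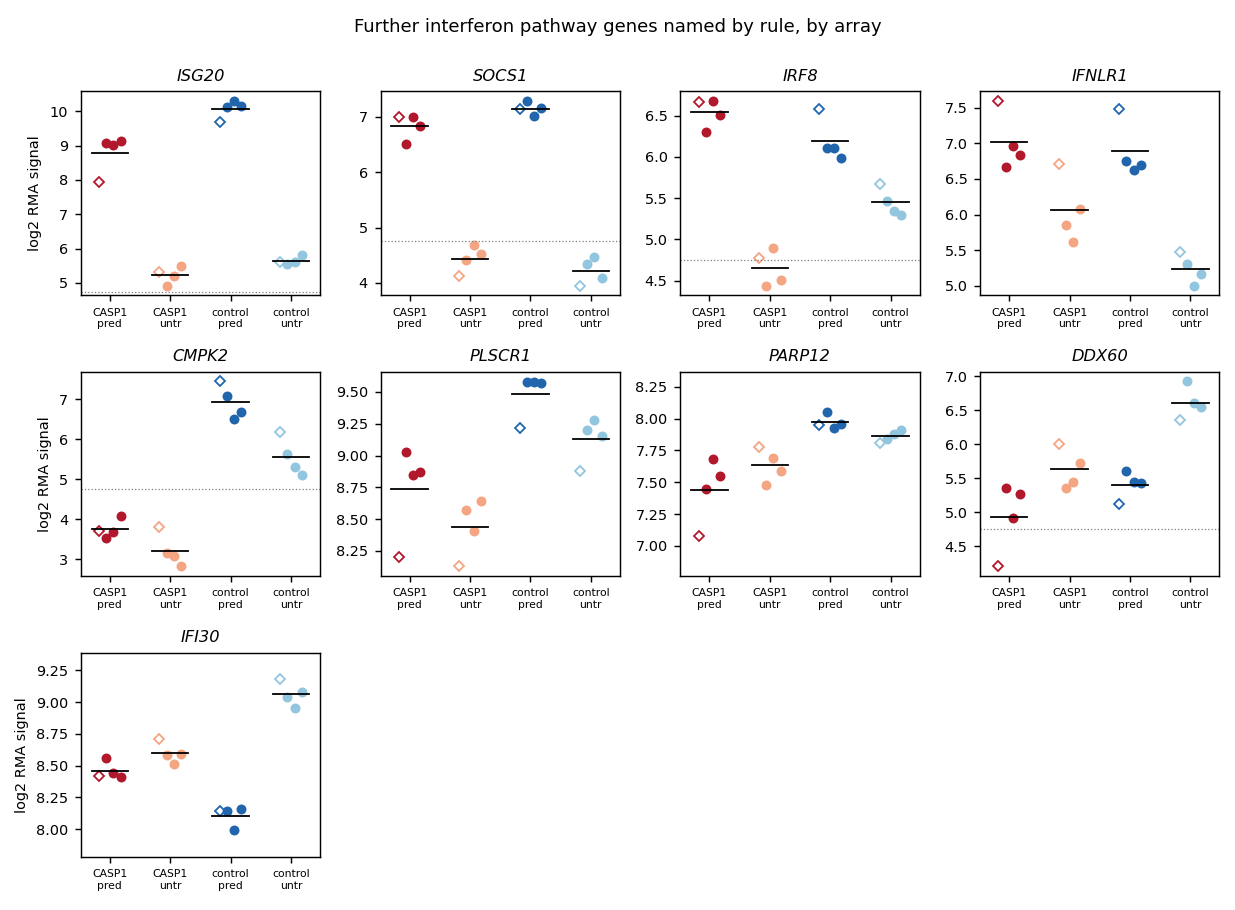
Log2 RMA signal (y axis) on each of the 16 arrays for 9 further pathway genes, with groups, symbols and floor as in the plot of members by array. ISG20 and SOCS1 are higher on every prednisolone-treated array than on any untreated array, and CMPK2 is under the floor on every array labelled CASP1 and above it on every control array.

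Of the 45 further interferon-induced genes measured, prednisolone raised 5 and lowered 13 in control cells (40%, against 14.2% of all genes). In cells labelled CASP1 it raised 1 and lowered 4 (11.1%, against 6.34%). Between the lines, 3 were higher and 8 lower in cells labelled CASP1 with prednisolone (24.4%, against 16.4% of all genes), and 1 was higher and 8 lower without it (20%, against 14.1%). DDX60, a helicase that aids RIGI, had log2 signals of 6.0, 5.36, 5.44 and 5.72 in untreated cells labelled CASP1, against 6.36, 6.92, 6.61 and 6.55 in untreated control cells (log2 difference -0.98, 1.98-fold lower, SE 0.21, adjusted p = 0.0033). With prednisolone PLSCR1, a phospholipid scramblase that restricts viruses, had 8.20, 9.03, 8.85 and 8.87 in cells labelled CASP1, against 9.22, 9.58, 9.58 and 9.57 in control cells (log2 difference -0.75, 1.68-fold lower, SE 0.16, adjusted p = 0.003). PARP12, a stress-granule ADP-ribosyltransferase, had 7.08, 7.45, 7.68 and 7.55 in prednisolone-treated cells labelled CASP1, against 7.95, 8.05, 7.93 and 7.96 in prednisolone-treated control cells (log2 difference -0.53, 1.44-fold lower, SE 0.11, adjusted p = 0.0022). The lines did not overlap for any of these 3, and replicate 1 was the lowest array labelled CASP1 for PLSCR1 and PARP12.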

How the data were processed

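The authors deposited log2 signals of 49395 probe sets on 16 PrimeView arrays, which per the submitters' processing notes came from RMA. The sources used here do not name its software, version or genome build. The number of arrays limits the precision. The members and gene lists were chosen with earlier results of these data known.

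Of 44988 probe sets naming 1 gene in the platform annotation, the one with the highest mean over 16 arrays represented the gene, leaving 18132 genes. These were fitted with limma 3.58.1 in R 4.3.3, with 4 group means, 12 residual degrees of freedom, eBayes with 5.46 prior degrees of freedom, two-sided tests, a median residual SD of 0.167 and Benjamini-Hochberg adjustment. The procedure was run on simulated data with independent noise on each array. These had no shift of replicate 1, so the run does not show how that shift affects the calls. Arrays have no detection call, so the floor stands in for one. A bounded fold is the brighter group's mean over the floor.

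The text names, per comparison, up to 8 called members and 4 called pathway genes with the largest absolute difference, plus IFNAR1, IFNAR2, JAK1 and TYK2, with checks on CASP1, NR3C1 and TSC22D3. Other called members are given by their difference. Older symbols were updated (DDX58 to RIGI).

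Alternatives were quantile normalization again, centring on the 75th percentile, the mean of a gene's probe sets, leaving out the dimmest 30% of genes, a trended and robust prior, the compared groups alone, the replicate number as a block, a floor at the 30th percentile of gene means, and leaving out each array or replicate 1 of every group. No scan date or slide was given.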

Additional observations from a re-analysis of the deposited data

Results flagged for a closer look

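In each of the 42 members and 4 groups, the array at either end was examined for a gap to the other 3 that, relative to the group's range, exceeded Dixon's 95% critical value. This held for 13 of 168 groups (7.74%), where chance gives about 1 in 20, and 12 of the 13 arrays were replicate 1.

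In untreated cells labelled CASP1, replicate 1 was above the other arrays for IRF1 (8.31 log2 units, others 7.55 to 7.57), IFITM2 (11.65, others 11.47 to 11.48), HERC5 (10.79, others 10.29 to 10.35), DTX3L (8.46, others 8.05 to 8.10), PARP14 (9.40, others 8.83 to 8.92) and TRIM22 (11.13, others 10.56 to 10.60). In prednisolone-treated cells labelled CASP1, replicate 1 was below the others for IFIT2 (5.50, others 6.91 to 6.94) and above them for ISG15 (8.0, others 7.47 to 7.52). In prednisolone-treated control cells it was below the others for SAMD9 (7.38, others 7.89 to 7.97). In untreated control cells it was above the others for IFITM2 (12.02, others 11.51 to 11.53), TRIM22 (10.53, others 10.00 to 10.08) and PSMB8 (10.66, others 10.37 to 10.40). The remaining array was replicate 4 of untreated control cells, low for IFI27 (4.88, others 5.12 to 5.15).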

How the results depend on the processing

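Of 61 calls of named genes, 41 held under every alternative and 20 ended in 1 or more, given beside the results; the dim filter, the trended prior and leaving out replicate 1 throughout ended none. IFNAR1 between untreated lines turned to -0.06 with the mean of its probe sets. Without replicate 1 the genes called numbered 2161 and 3969 with prednisolone in cells labelled CASP1 and control cells (1150 and 2568 on 16 arrays), 3876 between untreated lines (2552) and 727 in the interaction (161), and the members called between treated lines 17 (10) and in the interaction 3 (0). On the compared groups alone, prednisolone in cells labelled CASP1 gave 688 genes and 4 members (8). The mean of probe sets gave 1 member in the interaction, IRF9. Leaving out 1 array at a time gave 791 to 1292 and 2035 to 3180 genes with prednisolone in cells labelled CASP1 and control cells, 2244 to 3191 and 1985 to 3331 between treated and untreated lines and, in the interaction, 96 to 268 genes and 0 to 1 members, lowest without replicate 4 of prednisolone-treated control cells and highest without replicate 1 of prednisolone-treated cells labelled CASP1. It gave 4 to 10 members with prednisolone in cells labelled CASP1 (lowest without replicate 4 of its untreated arrays), 8 to 12 in control cells, 9 to 13 between treated and 8 to 13 between untreated lines, and member medians of -0.061 to -0.014, -0.060 to -0.016, -0.084 to -0.018 and -0.108 to -0.043 in these comparisons and of -0.008 to 0.068 in the interaction. A floor at the 30th percentile put 5 members near it, against 8. The replicate block ended none of the 61 calls and gave 289 genes and 1 member, IRF9, in the interaction, where JAK1 then had -0.63 (adjusted p = 0.005). In deviations from group means, arrays of the same number correlated from -0.116 to 0.507, and over 0.1 in 15 of 24 pairs. Only between the untreated lines was this so for all 4 numbers, and there the block gave 12 members (11) and 3213 genes (2552). For the other comparisons the numbers were not taken to pair the arrays. The array of the same number was nonetheless the best match in 12 of the 24 pairs, and for replicate 1 in every pair of groups. The main fit has no term for this. With the block, the members called were 9 (8) and 13 (11) with prednisolone in cells labelled CASP1 and control cells, and 13 (10) between treated lines. All genes called rose too in these comparisons, to 1559 (1150), 3174 (2568) and 3819 (2974). The cause of these shifts was not tested. Signals near the floor, such as IFI44, cannot show how far a gene fell.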
